A study of Mus musculus with 6 samples.

Results

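The members are the messenger RNAs of the respiratory chain and ATP synthase, split by the genome that encodes them. They were chosen by symbol and by one measured value, a mean of at least 1 TPM over the 6 libraries, and the set was picked out with earlier results of these data known. Of 54347 gene rows, 129 carried a matching symbol prefix, 14 of these were pseudogene rows ending in -ps and 11 others lay below the threshold, 6 of them at 0 in every library. The 104 members that remained are 13 mitochondrially encoded and 91 nuclear encoded genes, among 12652 genes with a mean of at least 1 TPM. Of the nuclear members, 80 are subunits and 11 are assembly factors whose symbols share a prefix (Ndufaf and Sdhaf). Cox7a1, at a mean of 2.17 TPM, was the member nearest the threshold, and Sdhaf3, at 0.772 TPM, stood just outside it.

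The cells were microglia, macrophages that live in the brain, cultured out of mixed glia from forebrains of C57BL/6 pups aged 2 to 3 days. There were 3 libraries from Plcg2+/+ pups and 3 from Plcg2-/- littermates, which lack phospholipase C gamma 2, an enzyme that acts below immune receptors of microglia. In both genotypes the cells were raised with GM-CSF (a growth factor for myeloid cells, 5 ng/mL) in 10% serum, shaken off on day 12 to 13, and kept for 72 h or more in 1% serum with 0.5 ng/mL GM-CSF. RNA was selected by its poly(A) tail. Nothing in the labels says whether replicates came from different animals or dishes, and p-values therefore measure only the spread between these libraries, which may be technical. Values are TPM, which is scaled for transcript length and to the same total of 1000000 in every library, and the depth behind them is unknown here. In bulk RNA, fewer cells of a type and less RNA per cell cannot be told apart.

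Plcg2 itself was at 45.2, 39.7 and 54.9 TPM in Plcg2+/+ and at 16.0, 16.7 and 16.1 TPM in Plcg2-/- libraries 1 to 3. The 13 microglia markers summed to 5711 to 7230 TPM in Plcg2+/+ and 5842 to 7963 TPM in Plcg2-/-. Of 12 tested, 4 (33.3%) rose and 3 fell, beside 15.6% of all genes called higher and 5.31% lower. The part of these markers in the results below was not tested. Csf1r (580.1 and 687 TPM on average) and C1qa (612 and 1404 TPM) were abundant in both genotypes, whereas Cx3cr1 (2.06 and 0.244 TPM) and P2ry12 (5.68 and 23.8 TPM) were low. Summed markers of other cell types overlapped between genotypes: 8 astrocyte genes at 30.4 to 60.5 against 43.0 to 59.6 TPM, 10 oligodendrocyte lineage genes at 70.7 to 138 against 93.2 to 127 TPM, 6 endothelial genes at 16.4 to 24.0 against 19.7 to 29.1 TPM, 6 neuronal genes at 3.08 to 10.9 against 4.27 to 9.84 TPM and 6 fibroblast genes at 0.772 to 1.94 against 0.451 to 3.07 TPM. None of these markers was at 0 in all 6 libraries. Single markers did differ: Aldh1l1 (12.3 and 28.3 TPM, astrocytes), Cnp (15.3 and 34.4 TPM, oligodendrocytes) and Kdr (5.89 and 19.3 TPM, endothelium) rose, and Cspg4 (9.62 and 0.471 TPM, oligodendrocyte precursors) and Flt1 (12.5 and 3.65 TPM, endothelium) fell. They are 5 of the 15 markers of these 5 cell types that were tested, to be read beside the same 15.6% and 5.31% of all genes. Their part in the results was not tested. The mean log2 level of 4 Y-linked genes was 0.12, 4.20 and 4.10 in Plcg2+/+ libraries 1 to 3 and 3.54, 0.25 and 0.30 in Plcg2-/- libraries 1 to 3. Libraries of low and of high Y-linked level thus stood in both genotypes, but not evenly. Plcg2+/+ 1 was the only low library of its genotype and Plcg2-/- 1 the only high one of its own. Differences between libraries of the same number therefore also carry a difference in Y-linked level.

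The respiratory chain of the inner mitochondrial membrane is built from the products of both genomes. Complex I takes electrons from NADH, complex II from succinate, complex III passes them from ubiquinol to cytochrome c, complex IV hands them to oxygen, and complex V, the ATP synthase, uses the proton gradient that the pumping complexes make. A few membrane subunits of complexes I, III, IV and V are transcribed from the circular mitochondrial DNA as long polycistronic RNAs that are cut, mostly at the tRNAs between them, and polyadenylated inside the organelle. All other subunits, and the whole of complex II, are nuclear genes whose proteins are imported. Activated macrophages are known to change how much of their ATP they draw from this chain.

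The mitochondrial genes are so tightly packed that some transcripts overlap or end without a whole stop codon, which bears on how their reads can be assigned. Positions are those of GENCODE M21 on GRCm38. mt-Atp8 (chrM, 7766 to 7969) and mt-Atp6 (chrM, 7927 to 8607) share 43 bases, shown here with the start codon of mt-Atp6 and the stop codon of mt-Atp8 in capitals.
mt-Atp8 and mt-Atp6 overlap: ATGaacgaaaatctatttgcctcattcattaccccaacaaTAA
mt-Nd4l (9877 to 10173) and mt-Nd4 (10167 to 11544) share 7 bases on one strand, and mt-Nd5 (11742 to 13565) and mt-Nd6 (13552 to 14070) share 14 bases on opposite strands. The sources used here do not say whether reads were counted by strand. Without strand, the reads of mt-Nd6 and of RNA opposite to it cannot be told apart. The 3 transcripts below were chosen because their annotated length leaves 1 base after the last whole codon. That base, in capitals at the end of the last 20 bases, becomes a stop codon when the poly(A) tail is added.
mt-Co3 end: catttattgatgaggatctT
mt-Nd4 end: aattacaggcctgacaataT
mt-Cytb end: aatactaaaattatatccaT
For comparison, mt-Co1 ends in a whole stop codon, in capitals.
mt-Co1 end: cctatgtaaaagtaaaaTAA

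All 13 mitochondrially encoded mRNAs had lower TPM in every Plcg2-/- library than in any Plcg2+/+ library, at 42.3% (mt-Nd3) to 52.8% (mt-Atp8) of the Plcg2+/+ mean. By limma with Benjamini-Hochberg adjustment over all 12652 genes tested, 11 of 13 fell and 0 rose. Over all genes tested, 5.31% were called lower and 15.6% higher, and in 10.9% all 3 Plcg2-/- values lay below all 3 Plcg2+/+ values. The median log2 fold change of the 13, on the log2(TPM + 1) scale, was -1.13 (range -1.29 to -0.98), beside a median of 0.19 over all genes tested. The 2 members not called were mt-Nd2 (adjusted p = 0.0517) and mt-Atp8 (adjusted p = 0.0830). Calls over so few libraries rested on each of them: by limma, 0 of 13 were called when Plcg2+/+ 1, Plcg2+/+ 2 or Plcg2-/- 1 was left out (13, 12 and 12 at an unadjusted p below 0.05), 8 without Plcg2+/+ 3, 2 without Plcg2-/- 2 and 3 without Plcg2-/- 3. The fold change was negative for all 13 in each of these fits, with medians of -1.34 to -0.86.

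Complex IV, cytochrome c oxidase, had the most abundant of these mRNAs. mt-Co1, which carries the heme and copper centre that reduces oxygen, was at 30820.3, 29819.8 and 21190.1 TPM in Plcg2+/+ libraries 1 to 3 and at 9638, 14196 and 14338 TPM in Plcg2-/- libraries 1 to 3. Plcg2+/+ 3 was the lowest of its genotype and Plcg2-/- 1 the lowest of all, and the groups did not overlap. Its log2 fold change was -1.10 ± 0.26 (SE, n = 3 per genotype, limma adjusted p = 0.0287). mt-Co2, which takes electrons from cytochrome c, went from 21171 ± 2773 to 9956 ± 2248 TPM (SD, n = 3), a log2 fold change of -1.11 (adjusted p = 0.0227). mt-Co3, whose transcript end is printed above, went from 15322 ± 1681 to 6774 ± 1808 TPM, a log2 fold change of -1.21 (adjusted p = 0.0195, the smallest of the 13).

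Of the 7 complex I subunits, which form its membrane arm, 6 fell. mt-Nd3 showed the lowest log2 fold change of the set, -1.29 ± 0.28 (limma adjusted p = 0.0223), with 4779, 6544 and 5992 TPM in Plcg2+/+ libraries 1 to 3 against 1578, 2551 and 3203 TPM in Plcg2-/- libraries 1 to 3. Here Plcg2+/+ 1 was the lowest of its genotype. mt-Nd1 went from 7318 ± 854 to 3231 ± 1014 TPM, mt-Nd4l from 12146 ± 2476 to 5427 ± 2128 TPM, mt-Nd4 from 5248 ± 890.2 to 2464 ± 937 TPM and mt-Nd5 from 3100.1 ± 551 to 1489 ± 490.0 TPM. mt-Nd6, the one protein gene on the other strand of the circle, lay at 4825 ± 762 and 2255 ± 681 TPM, a log2 fold change of -1.13 (adjusted p = 0.0276). For mt-Nd2, the member of this complex that missed the threshold, the 3 Plcg2+/+ values were 3130.0, 3827 and 2961 TPM and the 3 Plcg2-/- values 892, 1884 and 2062 TPM, still without overlap.

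mt-Cytb, the cytochrome b that forms the core of complex III, fell from 6748 ± 1175 to 2975 ± 955 TPM (log2 fold change -1.22 ± 0.29, limma adjusted p = 0.0277). In complex V, mt-Atp6, the proton channel subunit, fell from 20549 ± 2848 to 9943 ± 2766 TPM (log2 fold change -1.08, adjusted p = 0.0331). Its overlapping partner mt-Atp8, not called, was at 12434, 18333 and 17906 TPM in Plcg2+/+, against 5030.2, 10919.5 and 9760.2 TPM in Plcg2-/-. The levels of partners that share bases were also set against each other: mt-Atp8 over mt-Atp6 was 0.626 to 0.988 in Plcg2+/+ and 0.738 to 0.998 in Plcg2-/-, mt-Nd4l over mt-Nd4 2.18 to 2.45 and 2.15 to 2.22, and mt-Nd6 over mt-Nd5 1.42 to 1.66 and 1.47 to 1.57. These 3 ratios overlapped between genotypes.

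The same libraries stood out across the set. Plcg2-/- 1 had the lowest value of its genotype for 13 of 13 mRNAs, and Plcg2+/+ 3 had the lowest of its genotype for 11 of 13. Summed over the 13, the mRNAs took 14.9%, 16.7% and 13.1% of all TPM in Plcg2+/+ and 4.69%, 7.92% and 8.35% in Plcg2-/- libraries 1 to 3. Between libraries of the same number, the median log2 difference was -1.80, -1.11 and -0.56 for pairs 1 to 3, and all 13 were lower in each pair. With the replicate number as a block, limma called 8 of 13: mt-Nd2 (adjusted p = 0.0397) and mt-Atp8 (0.0434) were then called, whereas mt-Co1 (0.0622), mt-Nd4 (0.0540), mt-Nd4l (0.0529), mt-Atp6 (0.0512) and mt-Co2 (0.0502) were not. Adding the Y-linked level to the model left 8 of 13 called, and testing every row without the filter on low values left 0 (7 at an unadjusted limma p below 0.05).

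**Figure D1:**
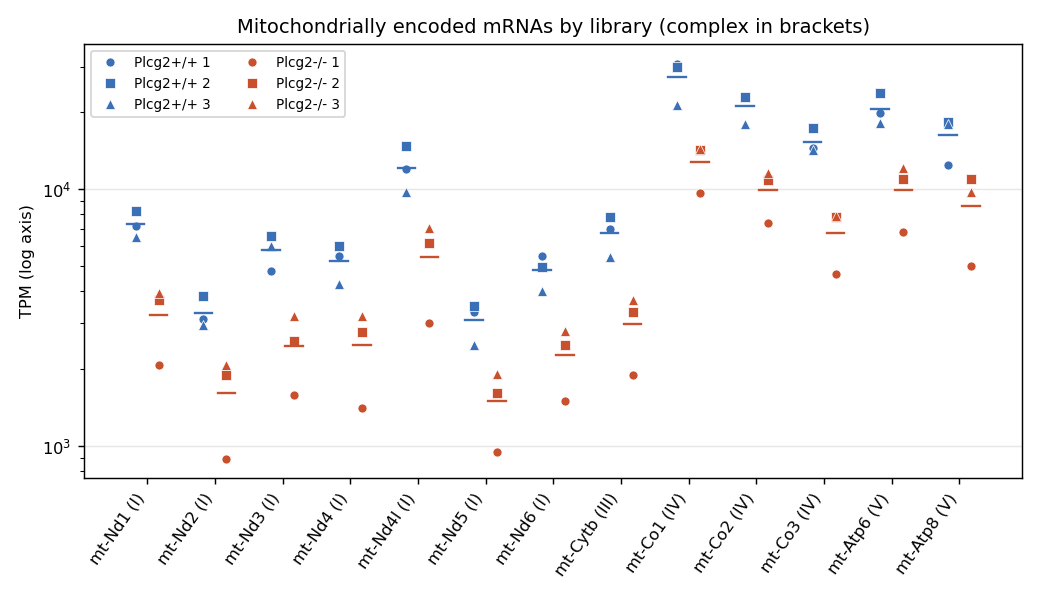
TPM (log axis) of each mitochondrially encoded mRNA, with its complex in brackets; symbols are single libraries, marked by replicate number, and bars are genotype means. In all 13 the Plcg2-/- libraries lie below the Plcg2+/+ libraries, with Plcg2-/- 1 lowest.

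The other products of mitochondrial DNA were read from lists beside the members. The ribosomal RNAs mt-Rnr1, at 2461 ± 355 and 1453 ± 92.5 TPM, and mt-Rnr2, at 3450.1 ± 525 and 1716 ± 138 TPM, both fell (log2 fold changes -0.75 and -0.998, limma adjusted p = 0.0179 and 0.00950), and were called in 2 and 5 of the 6 fits that leave out 1 library. mt-Rnr2 over mt-Co1 was 0.121 to 0.135 in Plcg2+/+ and 0.123 to 0.162 in Plcg2-/-, which overlapped. All 22 mitochondrial tRNA rows were listed at 0 in every library. RNA was selected by its poly(A) tail, so these values cover only what that selection kept of the ribosomal RNAs and tRNAs.

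The nuclear encoded members differed much less, and in the other direction. On the deposited scale 12 of 91 (13.2%) rose and 0 fell by limma (39 and 0 at an unadjusted p below 0.05), a share near the 15.6% of all genes called higher. Their median log2 fold change was 0.33 (range -0.087 to 0.82), positive for 88 of 91, beside 0.19 for all genes tested. All 3 Plcg2-/- values lay above all 3 Plcg2+/+ values for 38 of 91 (41.8%), against 32.4% of all genes, and the genotypes overlapped for the other 53. TPM has a fixed total, so a smaller mitochondrial share raises every other value. After rescaling to a total without the rows whose symbol starts mt-, the median of all genes was 0.069, that of the nuclear members 0.20, and 1 of 91 was called higher, Atp5o (adjusted p = 0.0440), and 0 lower (16 and 0 at an unadjusted p below 0.05), against 9.68% of all genes higher and 6.49% lower. With median-of-ratios scaling, which sets the median gene near 0, the nuclear median was 0.11, with 66 of 91 positive, and 0 of 91 were called by limma in either direction (10 higher and 1 lower at an unadjusted p below 0.05), with 7.71% of all genes higher and 7.85% lower.

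The mitochondrially encoded set kept its direction on all these scales. After rescaling, 11 of 13 were called lower with a median log2 fold change of -1.27, and with median-of-ratios scaling 12 of 13 with a median of -1.35. Quantile normalization, which gives all libraries 1 common distribution, gave a median of -0.73 with 1 of 13 called by limma. Under it 0 of 91 nuclear members were called, with a median of 0.075.

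**Figure D2:**
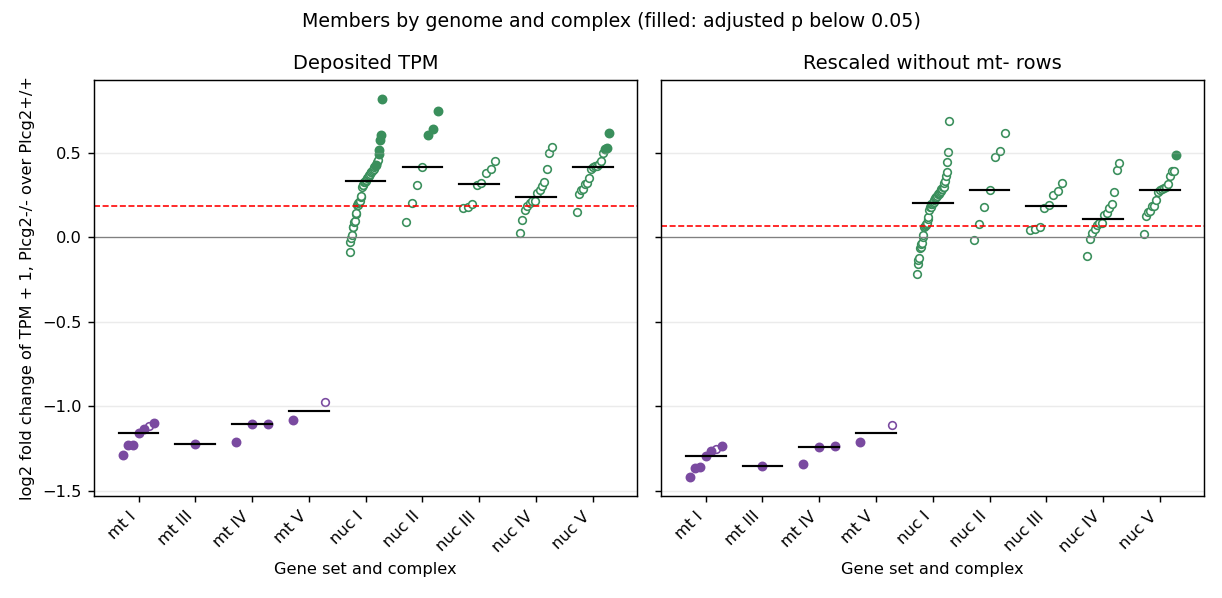
Log2 fold change of TPM + 1 (Plcg2-/- over Plcg2+/+) of each member, by genome and complex, on deposited TPM (left) and after rescaling without the mt- rows (right). Filled points have a limma adjusted p below 0.05, black bars are group medians, and the dashed line is the median of all genes tested; the mitochondrial points lie between -1.29 and -0.98 on the left, and 12 nuclear points are filled on the left against 1 on the right.

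Within a library the ratio of the mitochondrial to the nuclear sum does not depend on the factor that scales the library. For complexes I, III, IV and V together it was 11.6, 14.5 and 8.43 in Plcg2+/+ and 2.71, 4.77 and 5.44 in Plcg2-/- libraries 1 to 3, a log2 difference of -1.45. The groups did not overlap, and Plcg2-/- 1 was again lowest. The log2 difference was -1.50 for complex I, -1.56 for complex III, -1.37 for complex IV and -1.44 for complex V, and in none of them did the genotypes overlap. Leaving out 1 library at a time moved the combined difference between -1.66 and -1.14. The single pair of mt-Co1 and Cox4i1, the most abundant members of complex IV from each genome, gave ratios of 35.3, 35.8 and 18.8 against 8.58, 12.4 and 14.3.

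**Figure D3:**
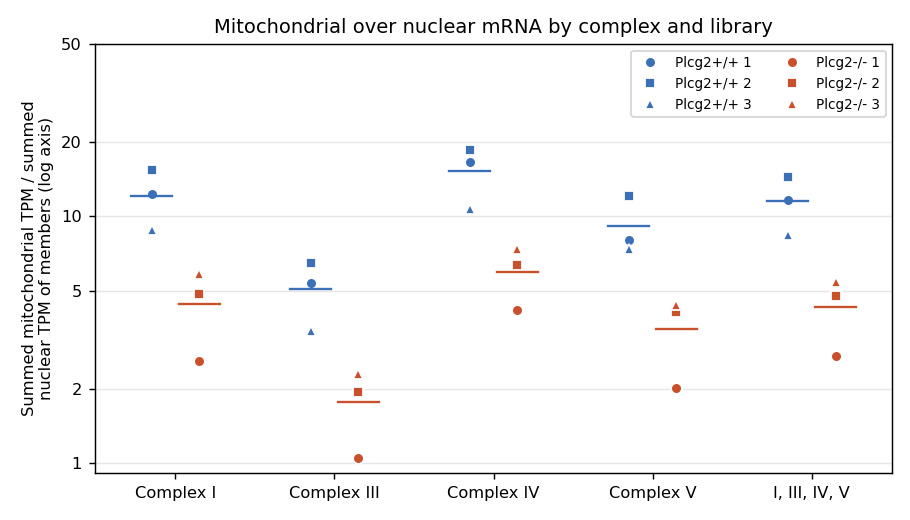
Summed TPM of mitochondrially encoded members divided by that of nuclear members (log axis), by complex and for the 4 complexes together; symbols are single libraries and bars are genotype means. The combined ratio is 8.43 to 14.5 in Plcg2+/+ and 2.71 to 5.44 in Plcg2-/- libraries.

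In complex II, which has no mitochondrially encoded subunit, all 4 subunits lay higher in every Plcg2-/- library than in any Plcg2+/+ library. This held for 32.4% of all genes. It held for 5 of the 7 members of complex II, 20 of 45 nuclear members of complex I and 9 of 17 of complex V. In complexes III and IV it held for 2 of 8 and 2 of 14. Of the 7 members of complex II 3 (42.9%) rose, beside 15.6% of all genes. Sdhc and Sdhd, the membrane anchors that hold its heme and ubiquinone site, were among them. Sdhc (chr1:171127165-171150603) was at 73.4, 77.2 and 97.7 TPM in Plcg2+/+ and 142, 118 and 119 TPM in Plcg2-/- libraries 1 to 3, a log2 fold change of 0.61 ± 0.15 (limma adjusted p = 0.0295). Plcg2+/+ 3 was the highest of its genotype and the groups did not overlap. Sdhd was at 119.6 ± 22.1 and 187 ± 31.3 TPM (log2 fold change 0.64, adjusted p = 0.0482). Sdha, the flavoprotein with the succinate site and the most abundant member, was at 173 ± 24.7 and 213 ± 9.11 TPM (adjusted p = 0.127), and Sdhb, the iron-sulfur subunit, at 136 ± 14.4 and 182 ± 29.2 TPM (adjusted p = 0.0915). Of the assembly factors, Sdhaf2, which adds the flavin to Sdha, rose from 34.5 ± 7.71 to 58.1 ± 10.3 TPM (log2 fold change 0.75, adjusted p = 0.0373), while Sdhaf1 (4.58 and 4.94 TPM) and Sdhaf4 (18.1 and 20.9 TPM) were not called. After rescaling none of the 7 members of complex II was called, the smallest adjusted p being 0.0520 for Sdhc.

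In complex I, 6 of 45 nuclear members (13.3%) rose and 0 fell, a share near the 15.6% of all genes, and after rescaling none of the 45 was called. Among its 7 core subunits the one called was Ndufs8 (chr19:3908863-3912774), a carrier of iron-sulfur clusters. It was at 52.9, 33.9 and 56.8 TPM in Plcg2+/+ and 103, 69.4 and 81.2 TPM in Plcg2-/- libraries 1 to 3, the largest log2 fold change of the nuclear set on the deposited scale (0.82 ± 0.23, limma adjusted p = 0.0459). Plcg2+/+ 2 was lowest and Plcg2-/- 1 highest. Of 30 accessory subunits 4 were called: Ndufc1 (81.4 ± 7.69 to 110 ± 3.27 TPM, adjusted p = 0.0347), Ndufb2 (42.8 ± 5.93 to 61.4 ± 4.84 TPM, 0.0351), Ndufc2 (94.8 ± 19.6 to 140.0 ± 6.46 TPM, 0.0410) and Ndufv3 (82.7 ± 13.2 to 116 ± 5.17 TPM, 0.0477). Ndufaf5, an assembly factor that modifies a core subunit, rose from 4.61 ± 0.552 to 7.56 ± 0.993 TPM (adjusted p = 0.0320), 1 of 8 assembly factors. At the other end stood Ndufb4, at 22.3 and 20.9 TPM (log2 fold change -0.087, adjusted p = 0.684). Ndufa1, the most abundant member, was at 225 ± 41.0 and 225 ± 10.8 TPM.

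None of the 8 members of complex III and none of the 14 of complex IV was called by limma on the deposited scale, although all 22 log2 fold changes were positive (0.023 to 0.53). In complex III the smallest adjusted p was that of Uqcrb, a small subunit at the ubiquinone site (178 ± 30.0 and 243 ± 6.90 TPM, log2 fold change 0.46, adjusted p = 0.0614), followed by Uqcrq (209 and 275 TPM, adjusted p = 0.0949). Uqcrh, the acidic hinge protein and the most abundant, was at 320.5 ± 46.6 and 395 ± 30.4 TPM, and Uqcrc2 showed the lowest log2 fold change, 0.18.

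In complex V 3 of 17 members (17.6%) rose, near the 15.6% of all genes, and 1 of 17 after rescaling. Atp5o (chr16:91925214-91931687), the stalk subunit that ties the catalytic head to the membrane part, was at 131, 109 and 142 TPM in Plcg2+/+ and 222, 189 and 176 TPM in Plcg2-/- libraries 1 to 3. All 3 Plcg2-/- values were above, with a log2 fold change of 0.62 ± 0.14 (limma adjusted p = 0.0268), the smallest p of the nuclear set. A row with the same symbol, at a mean of 0.478 TPM, was below the threshold. Atp5c1, the rotating central shaft, went from 162 ± 23.3 to 233 ± 8.98 TPM (adjusted p = 0.0316), and Atp5b, the catalytic subunit, from 477 ± 45.9 to 690.1 ± 89.0 TPM (adjusted p = 0.0404, and 0.0647 with the replicate block). Atp5g2, 1 of 3 genes for the c ring, had the lowest log2 fold change, 0.15, with 64.9, 38.4 and 95.6 TPM spread over the Plcg2+/+ libraries.

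**Figure D4:**
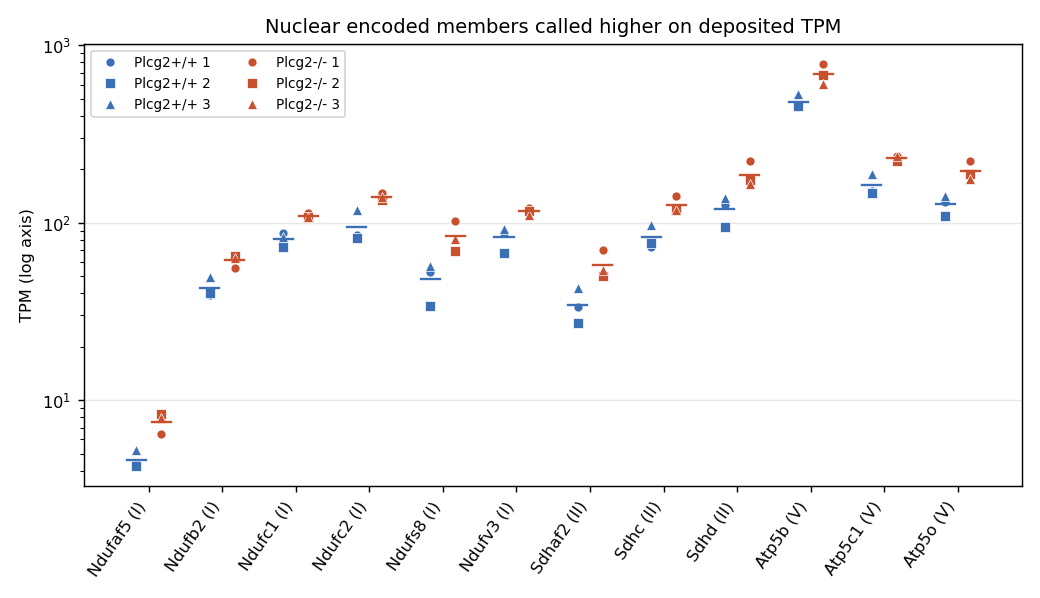
TPM (log axis) of the 12 nuclear encoded members called higher on deposited TPM, with the complex in brackets; symbols are single libraries and bars are genotype means. In all 12 the 3 Plcg2-/- libraries lie above the 3 Plcg2+/+ libraries.

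Here too the libraries were not alike. Plcg2+/+ 3 had the highest value of its genotype for 87 of 91 nuclear members, and Plcg2+/+ 2 the lowest for 68 of 91. Between libraries of the same number, Plcg2-/- was higher for 86, 87 and 50 of 91 members in pairs 1 to 3, with median log2 differences of 0.42, 0.55 and 0.021, and after rescaling for 82, 85 and 32. Without Plcg2+/+ 3, limma called 32 of 91 higher on the deposited scale and 7 after rescaling; leaving out any other single library gave 0 or 1 on the deposited scale (18 to 29 at an unadjusted p below 0.05 where it gave 0), and 0 after rescaling (7 to 13). With the replicate block 14 were called, adding Ndufs4, Ndufb5 and Ndufv1 and losing Atp5b, and with the Y-linked level in the model 1, Sdhc. Of all 12652 genes, 2483 were called higher with the block, 842 with the Y-linked level and 2106 without Plcg2+/+ 3. Without the filter on low values 0 of the 91 members were called (38 at an unadjusted limma p below 0.05).

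Complex IV has alternative subunits whose tissue patterns are known, and the forms that these libraries carried were the widespread ones. Cox4i1 was at 943 ± 158 and 1089 ± 73.5 TPM (limma adjusted p = 0.344), the most abundant nuclear member, whereas Cox4i2, the form of lung and low oxygen, had a mean of 0.0253 TPM over the 6 libraries. Cox6a1 was at 650.0 ± 63.4 and 659.8 ± 50.0 TPM (adjusted p = 0.911) and its heart and muscle counterpart Cox6a2 at a mean of 0.351 TPM. Cox7a2 (153 and 183 TPM) and Cox8a (446 and 539 TPM) stood against Cox7a1 (1.80 and 2.55 TPM) and Cox8b (listed at 0 in all 6 libraries), which are also muscle forms. Cox6b1 was at 320.4 ± 50.1 and 421 ± 31.4 TPM (adjusted p = 0.0916), beside 8.48 ± 5.66 and 8.34 ± 3.55 TPM for Cox6b2, the testis form. Cox7a2l, counted here with complex IV, showed the highest log2 fold change of that complex, 0.53 ± 0.20 (adjusted p = 0.103). Ndufa4, now placed in complex IV, was at 178 ± 29.4 and 206 ± 16.5 TPM, and the genes that can take its place were low: AA467197 at 16.2 ± 2.84 and 14.7 ± 1.83 TPM (adjusted p = 0.606) and Ndufa4l2 at a mean of 0.0321 TPM.

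Promoters of nuclear members are known to carry sites of NRF1, of the ETS factor GABP, of YY1 and of CREB. In RefSeq promoters of GRCm38.p6, 250 bases before to 50 after the start, 77 of 91 members were found by symbol, with 82 promoters. Exact matches on either strand were counted for the NRF1 core CGCATGCG, the ETS site CCGGAAGT, the YY1 site AAGATGGCG and the cAMP response element TGACGTCA; each motif was counted on its own, also where it overlaps another. The NRF1 core was in 11 of 82 member promoters (13.4%) and in 1.87% of all 32851 promoters, the YY1 site in 8 (9.76%) and 1.40%, the ETS site in 5 (6.10%) and 3.89%, and the cAMP response element in 4 (4.88%) and 1.79%. The 32851 promoters were not limited to genes with a mean of at least 1 TPM, as the members were, so these shares come from unlike sets. A match is a description of letters and not evidence that a factor binds there. Of the 77 members found, 25 held any of the 4 motifs. Of the 12 members called higher, 11 were found and 3 held any of them (Ndufaf5, Ndufb2 and Ndufc1). The 250 bases before the start are shown for Ndufb2, a called member, and for Atp5j and Cox6a1, members not called that carry the NRF1 core, with matches in capitals.
Ndufb2 (chr6:39592315-39592564, plus strand): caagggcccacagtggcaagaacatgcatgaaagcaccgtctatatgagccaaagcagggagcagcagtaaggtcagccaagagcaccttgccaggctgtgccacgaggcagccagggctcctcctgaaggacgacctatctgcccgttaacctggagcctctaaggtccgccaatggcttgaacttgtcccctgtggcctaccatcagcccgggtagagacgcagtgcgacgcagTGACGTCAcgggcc
Atp5j (chr16:84834977-84835226, minus strand): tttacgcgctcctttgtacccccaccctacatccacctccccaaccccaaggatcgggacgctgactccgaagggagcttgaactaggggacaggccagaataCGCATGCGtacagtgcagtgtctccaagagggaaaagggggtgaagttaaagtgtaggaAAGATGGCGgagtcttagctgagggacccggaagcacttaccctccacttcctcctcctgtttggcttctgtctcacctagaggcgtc
Cox6a1 (chr5:115348959-115349208, minus strand): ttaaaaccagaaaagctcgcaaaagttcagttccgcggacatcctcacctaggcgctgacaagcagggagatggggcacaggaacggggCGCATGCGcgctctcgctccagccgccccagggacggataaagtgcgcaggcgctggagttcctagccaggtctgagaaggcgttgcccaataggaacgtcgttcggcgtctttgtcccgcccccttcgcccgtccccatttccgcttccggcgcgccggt
Ndufb2 has the cAMP response element near its start, the Atp5j promoter shown has the NRF1 core and the YY1 site, and Cox6a1 the NRF1 core. A second Atp5j promoter (chr16:84835626-84835875) held none of the 4 motifs in the 250 bases before its start. Atp5j lay at 172 ± 31.9 and 226 ± 9.84 TPM (limma adjusted p = 0.0934), and Cox6a1 differed little, as given above.

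Genes that make, handle and read mitochondrial RNA were taken as lists beside the members. Of 18 tested genes of mitochondrial transcription and replication, 0 were called by limma without the block in either direction. With the replicate block, under which 2483 of all 12652 genes were called higher, 2 of the 18 were called higher. These were Tfam, which packages mitochondrial DNA and starts its transcription (12.5 ± 0.567 and 19.8 ± 5.77 TPM, adjusted p = 0.0768, blocked 0.0493), and Mgme1, a nuclease of mitochondrial DNA replication (7.10 and 10.0 TPM, adjusted p = 0.0543, blocked 0.0435). The median log2 fold change of this list was 0.065 on deposited TPM and -0.12 with median-of-ratios scaling. The median of all genes tested moved likewise, from 0.19 to -0.0045, and the list lay below it on both scales. With median-of-ratios scaling 2 of the 18 were called lower by limma, beside 7.85% of all genes. These were Twnk (8.84 and 6.88 TPM, adjusted p = 0.0434) and Dna2 (13.0 and 10.4 TPM, adjusted p = 0.0385). Of 25 genes of mitochondrial RNA processing and stability, 5 (20%) rose and 1 fell, beside 15.6% of all genes called higher and 5.31% lower.

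Pnpt1, the exonuclease polynucleotide phosphorylase that degrades RNA in mitochondria and is also induced by interferon, was at 19.7, 19.7 and 22.4 TPM in Plcg2+/+ and 45.3, 35.5 and 45.1 TPM in Plcg2-/- libraries 1 to 3. Its log2 fold change was 0.99 ± 0.13 (limma adjusted p = 0.00445), the groups did not overlap, and it stayed called with each single library left out (largest adjusted p 0.0297). Fastkd2, which binds the mitochondrial 16S ribosomal RNA and ND6 mRNA, was at 36.3, 32.5 and 31.6 TPM against 22.1, 22.1 and 21.9 TPM, a log2 fold change of -0.58 ± 0.10 (adjusted p = 0.0116, at most 0.0549 with 1 library left out). Rexo2, an exonuclease that clears short RNA (93.4 ± 22.6 to 168 ± 18.5 TPM), Slirp, a partner of the mRNA-stabilising protein LRPPRC (46.8 ± 5.46 to 69.0 ± 7.24 TPM), Grsf1, a protein of the RNA granule (30.4 ± 2.19 to 40.5 ± 2.89 TPM), and Ptcd1 (7.35 ± 1.14 to 11.4 ± 1.53 TPM) also rose. After rescaling, Pnpt1 and Rexo2 rose and Fastkd2 fell, and the other 3 were not called.

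Of 79 tested proteins of the mitochondrial ribosome 11 (13.9%) rose and 0 fell, and 2 (2.53%) rose after rescaling; over all genes the shares were 15.6% and 9.68%, so these counts do not set the group apart. The smallest p were those of Mrps6 (54.4 ± 2.58 to 101 ± 7.36 TPM, log2 fold change 0.88, limma adjusted p = 0.00282) and Mrpl27 (45.3 to 64.4 TPM, 0.0247). None of 11 translation factors was called, the smallest p being those of Tsfm (21.1 and 16.7 TPM, adjusted p = 0.143, and 0.0281, lower, with median-of-ratios scaling) and Mtif3 (9.30 and 12.6 TPM, 0.168). Of 37 further assembly factors outside the symbol prefixes, 7 (18.9%) rose and 0 fell, beside 15.6% of all genes, and 5 (13.5%) rose after rescaling, beside 9.68%. Coa5, a complex IV factor, went from 45.4 ± 5.35 to 101 ± 13.6 TPM (log2 fold change 1.13, adjusted p = 0.00346), and Uqcc1, which aids the making of cytochrome b, from 11.4 ± 1.26 to 21.1 ± 1.15 TPM (0.84, adjusted p = 0.00576); both stayed called with each single library left out. Cox18, Cox19, Cox20, Sco1 and Cmc1, which insert or supply copper to the mitochondrially encoded subunits of complex IV or help mature it, were the other 5.

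The remaining lists are read against the 15.6% of all genes called higher on deposited TPM. With the replicate block 2483 of all 12652 genes were called higher, against 1971 without it, and after rescaling 9.68% were. Of 14 citric acid cycle genes 1 (7.14%) rose, Suclg1 (29.8 to 42.9 TPM, limma adjusted p = 0.0291), and 3 with the replicate block, among them Cs, citrate synthase (78.3 ± 12.7 and 108 ± 11.8 TPM, adjusted p = 0.0691, blocked 0.0440). Of 18 electron carriers and inlets 1 (5.56%) rose, Coq2 of ubiquinone synthesis (14.8 to 21.1 TPM, adjusted p = 0.0457, blocked 0.0588); Etfdh missed the threshold (15.4 and 21.6 TPM, 0.0598, blocked 0.0379). Coq10b was called lower after rescaling (20.0 and 16.5 TPM, adjusted p = 0.0430). Of 8 regulators of mitochondrial biogenesis 1 (12.5%) rose, Gabpb2 (8.15 to 12.2 TPM, 0.0460), and 3 with the block, with Gabpa at 8.28 and 13.3 TPM (adjusted p = 0.0780, blocked 0.0296). Of 25 genes of import, membranes and dynamics 5 (20%, and 1 after rescaling) rose, among them Dnm1l, the fission GTPase (22.4 to 32.8 TPM, 0.0233), and Timm23, the inner membrane import channel (75.4 to 112 TPM, 0.0245), and 8 with the block. Of 7 mitophagy genes 2 (28.6%, and 1 after rescaling) rose, Fundc1, a receptor of the outer membrane (16.1 to 31.4 TPM, 0.0147), and Sqstm1, a cargo adaptor (312 to 431 TPM, 0.0361, and not called with any 1 library left out); Bnip3l, another receptor, was called lower with the replicate block (122 and 79.0 TPM, blocked adjusted p = 0.0250). Atpif1, the inhibitor of the ATP synthase, was at 248 ± 21.6 and 272 ± 10.3 TPM (adjusted p = 0.404).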

How the data were processed

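RNA was measured in 3 Plcg2+/+ and 3 Plcg2-/- libraries, grouped by the titles. The authors deposited TPM per gene, each library summing to 1000000, so depth and counting error are unknown. The build GRCm38.p6 and the tools DESeq2 1.30.1, Salmon 1.3.0 and R 4.0.4 are named per the submitters' processing notes. Neither the annotation release nor the step that made the TPM values is stated there. The members, gene lists and named-gene rule were chosen with earlier results of these data known. Ndufa4 was counted with complex IV.

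The 12652 genes with a mean of at least 1 TPM were tested on log2(TPM + 1), which understates changes of low genes, with two-sided tests and a trended prior variance in limma 3.58.1 (R 4.3.3) and Benjamini-Hochberg adjustment over all genes; the threshold was 0.05. Standard errors are the moderated ones; TPM means carry their SD. The same fit was run on TPM rescaled without rows whose symbol starts mt-. No p was computed for sums, ratios or medians over members. Named are all mitochondrially encoded members, per complex the most abundant, the 2 smallest p and the extreme fold changes, complex IV alternative forms, and the 2 smallest p per list; Sdhb, Sdhd, Sdhaf4, Atp5j, Twnk, Dna2, Coq10b, Bnip3l and other called members were added after their values were seen.

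Replicate numbers occur in both genotypes, and deviations from the genotype means correlated at 0.295, 0.193 and 0.147 between libraries of the same number. All exceeded 0.1, and those between libraries of different number ran from -0.195 to 0.0037. Deviations sum to 0 within each genotype, so these correlations depend on one another and cannot by themselves show pairing. The labels do not state any pairing. The values printed are those of the fit without a replicate block, and blocked values stand beside results whose call they change. Alternatives were 2 other scalings, pseudocounts of 0.1 and 0.5, other filters, a constant prior, the replicate block, a Y-linked covariate and libraries left out. The script was tested on simulated data. Transcript positions and sequences came from GENCODE M21, promoters from RefSeq. Python 3.11.15, pandas 2.3.3, numpy 2.4.6 and matplotlib 3.10.9 were used.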

Additional observations from a re-analysis of the deposited data

How the results depend on the processing

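No called result changed direction under the settings run. The 883 comparisons of named genes with alternatives that kept their side of the threshold stood beside 351 in which a call was lost and 24 in which one was gained. Over the whole table, genes called higher and lower (1971 and 672 on deposited TPM) were 1225 and 821 after rescaling without mt- rows, 975 and 993 with median-of-ratios scaling, 959 and 1031 with quantile normalization, 1226 and 500 with no filter, 2483 and 815 with the replicate block, 1104 and 1127 with the replicate block and median-of-ratios scaling, 842 and 375 with the Y-linked covariate, and 71 and 35, 983 and 351, and 507 and 275 without pairs 1, 2 and 3; leaving out 1 library gave 559 to 2106 and 276 to 644. Mitochondrially encoded members called lower (11) were 8 with the replicate block, 1 with quantile normalization, 0 with no filter, 0 without any 1 pair (3, 7 and 12 at an unadjusted limma p below 0.05), and 0 to 8 with 1 library left out. Nuclear members called higher (12) were 14 with the replicate block, 1 after rescaling, 0 with median-of-ratios scaling or quantile normalization, 0 with no filter, 4 with a constant prior variance, 1 with the replicate block and median-of-ratios scaling, 1 with the Y-linked covariate, 0, 0 and 1 without pairs 1, 2 and 3, and 0 to 32 with 1 library left out.

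On rescaled TPM, in combinations chosen after seeing the data, mitochondrially encoded members called lower (11) were 10 with the replicate block, 1 with quantile normalization, 0 with no filter and 0 without any 1 pair, and 0 to 7 with 1 library left out. Nuclear members called higher (1) were 3 with the replicate block, 3 with a mean of at least 5 TPM, 0 with median-of-ratios scaling, quantile normalization, no filter, a constant prior variance, the Y-linked covariate or without any 1 pair, and 0 to 7 with 1 library left out. The median log2 fold change of mitochondrially encoded members (-1.13) was -0.73 with quantile normalization and -1.34 to -0.86 with 1 library left out. That of nuclear members (0.33) was 0.11 with median-of-ratios scaling, with or without the replicate block, 0.075 with quantile normalization, 0.49 without pair 3, and 0.23 to 0.45 with 1 library left out. The log2 difference of the mitochondrial to nuclear ratio, with 1 library left out, was -1.66 to -1.14 for the complexes together, -1.74 to -1.16 for I, -1.82 to -1.22 for III, -1.61 to -1.13 for IV and -1.64 to -1.08 for V. Apart from the smaller number of libraries or genes that some settings use, the cause of these shifts was not tested. The read counts behind the TPM values are unknown here, so limits on low values such as Cox7a1 cannot be given.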

Other observations

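Ndufb1-ps, which the symbol rule leaves out with the pseudogenes, was among the more abundant rows with a complex I prefix. It was at 104, 73.2 and 115 TPM in Plcg2+/+ and 187, 145 and 145 TPM in Plcg2-/- libraries 1 to 3, without overlap (log2 fold change 0.72, limma adjusted p = 0.0424). GENCODE M21 types it as a long noncoding RNA of a bidirectional promoter. Cox7c-ps1, a transcribed processed pseudogene, was at 24.1 ± 3.85 and 30.2 ± 2.92 TPM (adjusted p = 0.163) beside 396 and 448 TPM for its parent Cox7c, so reads of near-identical copies may have been split between them. Both were picked after their values were seen.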
